A study of Mus musculus with 12 samples.

Results

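The siKEAP1 and siCCNF libraries were compared directly with each other, to ask which genes separate a myoblast that has lost KEAP1 from one that has lost cyclin F. The comparison took 6 of the 12 libraries of the series, 3 labelled siKEAP1 and 3 labelled siCCNF, by their treatment labels alone. The other libraries are 3 siCONTROL and 3 siKEAP1/siCCNF libraries, and they are used here to estimate the spread between replicates and to show on which side of siCONTROL each group lay. All cells were C2C12, an immortalized line of mouse myoblasts that stop dividing and fuse into myotubes when serum is withdrawn. Each group received 30 nM siRNA for 48 h, against Keap1, against Ccnf, against both or as a control, in DMEM with 5% serum by the labels, whereas the methods give a higher serum percentage. RNA was selected by its poly(A) tail, and the labels call the 3 samples of a group biological replicates. An siRNA leaves some of its target, a single cell line was used, and the sources used here do not say which of the study's Ccnf siRNAs was sequenced.

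KEAP1 is the substrate adaptor of a CUL3 ubiquitin ligase that keeps the transcription factor NRF2 (gene Nfe2l2) short-lived. When KEAP1 is lost or its cysteines are modified by electrophiles, NRF2 accumulates, pairs with small MAF proteins and binds antioxidant response elements near genes for glutathione synthesis, thioredoxin, NADPH production, detoxification and iron storage. Cyclin F, the product of Ccnf, does not bind a CDK but is the substrate adaptor of a CUL1 ligase (SCF), which acts from S phase to mitosis on E2F factors, CDC6, RRM2 and others. In myoblasts, stabilized NRF2 is known to hold back differentiation, and differentiation in turn requires exit from the cell cycle.

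Of 54532 genes in the deposited table, 15122 had enough counts to be tested. At an adjusted p under 0.05 (edgeR's quasi-likelihood test, Benjamini-Hochberg), 8738 genes (57.8%) differed between siKEAP1 and siCCNF, 4527 higher after siKEAP1 (29.9% of those tested) and 4211 higher after siCCNF (27.8%). With a difference over 2-fold as well, 2857 genes (18.9%) remained, hereafter the called genes, 1747 higher after siKEAP1 (11.6%) and 1110 higher after siCCNF (7.34%). Differences are given throughout as log2 of siKEAP1 minus siCCNF, so that positive values mean a higher level after siKEAP1. A gene named without a p passed the test at an adjusted p under 0.05. Counts of list members higher in either direction are to be read beside 29.9% and 27.8% of all genes, and called members beside 11.6% and 7.34%. The called sets were less even at larger differences: 635 genes were over 4-fold higher after siKEAP1 against 268 after siCCNF, and 290 against 77 were over 8-fold. Genes of glutathione metabolism, detoxification and NADPH production stood on the siKEAP1 side. Replication, mitosis and chaperone genes were mostly higher there too, by smaller differences. Few mitosis genes were called (3 of 44, beside 11.6% of all genes). Collagen and other matrix genes, part of the acute-phase genes and part of the sarcomere genes stood on the siCCNF side.

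**Figure D1:**
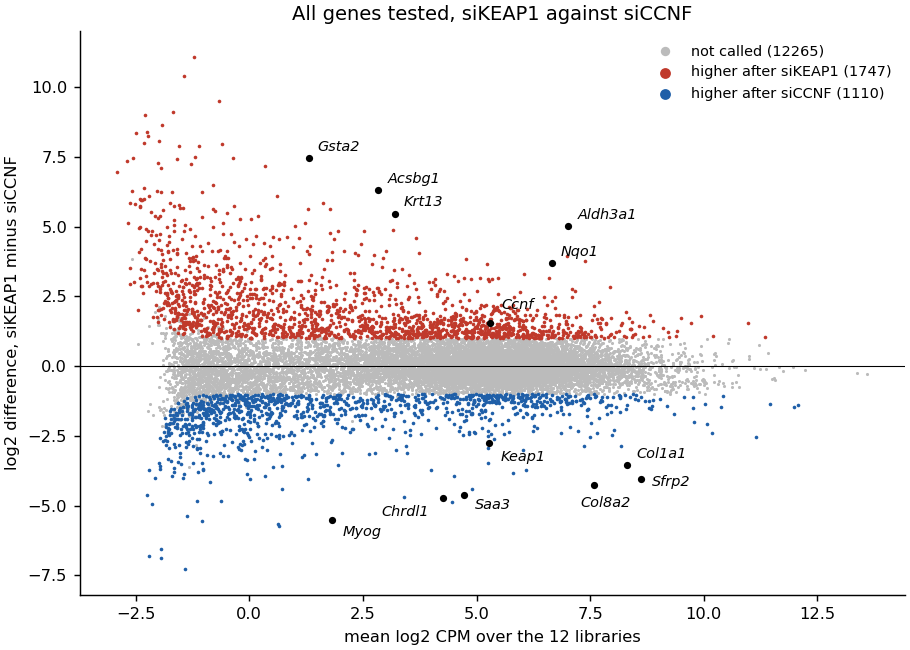
Each point is 1 of the 15122 genes tested; the horizontal axis is its mean log2 CPM over the 12 libraries and the vertical axis its log2 difference, siKEAP1 minus siCCNF. The 1747 called genes higher after siKEAP1 are red and the 1110 higher after siCCNF are blue. Their median levels were 1.9 and 1.51 log2 CPM, below the 4.53 of all genes tested.

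The 6 libraries held together by group. CPM values here are counts divided by the TMM-scaled total of their library, and the total counts were 21346088 to 24601929 per siKEAP1 library and 26039296 to 37743198 per siCCNF library, so that every siCCNF library was the deeper one. With all libraries thinned to 18464209 counts, 2667 genes were called, 1618 and 1049. The median absolute log2 difference between a pair of libraries was 0.0992 to 0.111 within siKEAP1, 0.0943 to 0.129 within siCCNF and 0.448 to 0.464 between the groups. Of the libraries outside the comparison, siCONTROL replicate 1 stood apart, at 0.256 and 0.275 from its fellows against 0.0956 between these, and so did siKEAP1/siCCNF replicate 3, at 0.223 and 0.225. Without both libraries 3117 genes were called, 1885 and 1232. Medians of gene lists against siCONTROL, where printed in the text, are given also without these libraries if they moved by over 1.5 times. Those of the called genes and of the ribosomal protein genes were not recomputed without them. In bulk RNA, fewer cells of a kind and less RNA per cell cannot be told apart.

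The targeted genes were low in the libraries labelled with their siRNAs. Keap1 (ENSMUSG00000003308, chr9:21229730-21239361 on GRCm38, minus strand) was at 12.3, 12.8 and 12.7 CPM in the siKEAP1 libraries and at 86.5, 88.6 and 80.3 in the siCCNF libraries. The difference was -2.75 ± 0.084 on the log2 scale (SE, 3 against 3 libraries, adjusted p = 5.98e-11), with no overlap. Most genes shared this last trait, since the groups did not overlap for 10777 of the 15122 genes tested. Against siCONTROL the siCCNF libraries differed by -0.04 for Keap1 (adjusted p = 0.659). Ccnf (ENSMUSG00000072082, chr17:24223232-24251409, minus strand) was at 56.8, 64.9 and 56.4 CPM after siKEAP1 and at 19.7, 20.4 and 21.3 after siCCNF, a log2 difference of 1.53 ± 0.076 (adjusted p = 2.73e-09). Ccnf was below siCONTROL in both groups, by log2 differences of -0.45 after siKEAP1 and -1.99 after siCCNF, so that the direct comparison sets its larger fall against a smaller one.

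Myoblast identity was present in both groups. Of the 9 tested markers, such as Myod1, Pax7, Myf5, Des and Cdh15, 5 were higher after siKEAP1 and 1 after siCCNF, and their summed level was 1287 to 1352 CPM after siKEAP1, 1033 to 1064 after siCCNF and 2209 to 2546 in siCONTROL. Myod1, the factor that sets the muscle lineage, differed by -0.15 (adjusted p = 0.153) and Pax7, a factor of muscle stem cells, by 0.12 (adjusted p = 0.246). Against siCONTROL, Myod1 was lower in both groups (-1.73 after siKEAP1 and -1.58 after siCCNF, log2). Of other cell types, macrophage markers gave Adgre1, Itgam, Tyrobp, C1qa and C1qb at 0 counts in all 6 libraries, and Ptprc at 3 counts at most. Among the 4 macrophage markers that could be tested, Cd68 (1.64) and Cd14 were higher after siKEAP1 and Lyz2 (-1.97) was higher after siCCNF.

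Apart from Keap1, the core genes that make or degrade NRF2 differed little in mRNA. Nfe2l2 itself was at 145, 154 and 150.2 CPM after siKEAP1 and 125, 132 and 129 after siCCNF, a difference of 0.22 (adjusted p = 0.0032) that missed the threshold without the filter on low counts (adjusted p = 0.057). For Cul3, the scaffold of the KEAP1 ligase, the difference was -0.00082 (adjusted p = 0.992) with a 95% interval of -0.14 to 0.13, and for Trip12, the ubiquitin ligase after which the series is named, 0.11 (adjusted p = 0.586, interval -0.25 to 0.47). Trip12 passed the test under 3 alternatives, in the fit of the 6 compared libraries (0.10, adjusted p = 0.0425), without the libraries that stood apart (0.099, adjusted p = 0.0253) and with the gene length trend removed (0.16, adjusted p = 0.038). Over the 13 tested genes of this list the median difference was 0.22, with 5 higher after siKEAP1 and 3 after siCCNF, beside 29.9% and 27.8% of all genes. The 5 became 8 in the fit of the 6 compared libraries and without the libraries that stood apart.

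Other members of the list differed more. Sqstm1, the autophagy receptor p62 that can hold KEAP1, was at 922, 938 and 910.5 CPM after siKEAP1 and 287, 315 and 306 after siCCNF, 3.05-fold apart (log2 1.61 ± 0.068, adjusted p = 8.99e-10). It lay above siCONTROL after siKEAP1 (1.09) and below it after siCCNF (-0.52). The small MAF genes were all higher after siKEAP1, Maff by 1.80, Mafg by 0.83 and Mafk by 0.52 (log2). In the opposite direction stood Nfe2l1, a related factor that drives proteasome genes (-0.56), and Btrc, an adaptor of another ligase of NRF2 (-0.45).

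Genes of glutathione synthesis gave some of the cleanest separations. Gclm, the modifier subunit of glutamate-cysteine ligase, was at 259, 274 and 272 CPM after siKEAP1 and 26.1, 29 and 27.2 after siCCNF. Its difference was 3.29 ± 0.076 (log2, adjusted p = 1.26e-11), and the lowest siKEAP1 library lay far above the highest siCCNF library. The catalytic subunit gene Gclc was at 384, 375 and 374 CPM against 38, 47.1 and 43 (3.15, adjusted p = 5.6e-11). Slc7a11, the cystine importer, was at 32.3, 34 and 32.5 CPM against 3.45, 4.86 and 5.58 (2.83, adjusted p = 7.63e-09). Gsr, which regenerates reduced glutathione, and Gss, which completes its synthesis, were higher after siKEAP1 by 2.05 and 1.41. Of the 9 tested genes 6 were higher after siKEAP1, 5 of them called, and the median was 1.41. The exceptions were Chac1, which breaks glutathione down (-0.97), and Slc3a2, the heavy chain that partners Slc7a11 (-0.18), both higher after siCCNF. The call of Slc3a2 was lost under 5 of the alternatives.

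The glutathione transferases, carbonyl reductases and efflux pumps had the highest median of the NRF2-related lists, 1.86 on the log2 scale. Of 27 genes 25 were tested, 23 were higher after siKEAP1, 17 of them called, and none was higher after siCCNF. Gsta2, an alpha-class glutathione transferase, was at 39.1, 41.7 and 39.9 CPM after siKEAP1 and 0.171, 0.272 and 0.242 after siCCNF, 175-fold apart (log2 7.45 ± 0.20, adjusted p = 2.17e-11), although the siCCNF values rest on 6 to 9 counts a library. Gsta3 was at 27.5, 28.1 and 21.6 CPM after siKEAP1, and 3 counts in all were found in the siCCNF libraries against 1778, a ratio of 842 with an exact binomial 95% interval of 288 to 4090 that covers counting error only. Aldh3a1, an aldehyde dehydrogenase, was at 1238, 1222 and 1107 CPM against 39.4, 33.9 and 35.9, 32.6-fold apart (5.03 ± 0.16, adjusted p = 8.83e-11).

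The same direction held across the classes of this list. Mgst1, a membrane-bound transferase, differed by 4.58, with 96.6, 104 and 84.4 CPM after siKEAP1 and 3.45, 4.51 and 4 after siCCNF. The efflux pump gene Abcc3 differed by 3.81, Gsta4 by 3.93 and the carbonyl reductase gene Cbr3 by 1.99 (log2). Gsta1 differed by 5.64, and how reads shared between Gsta1 and Gsta2 were assigned is not given in the sources used here. Abcc1, another efflux pump gene, was the member nearest to 0, at 0.05 (adjusted p = 0.765). Against siCONTROL the list's median was 1.41 after siKEAP1 and -0.37 after siCCNF, where both contrasts share the siCONTROL libraries.

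Thioredoxin, peroxiredoxin and quinone genes followed, with 13 of 15 higher after siKEAP1, 7 of them called, and 1 higher after siCCNF (median 0.92). Nqo1 (ENSMUSG00000003849, chr8:107388225-107403206, minus strand), a quinone reductase and a standard readout of NRF2, was at 414, 394 and 382 CPM after siKEAP1 and 30.7, 30.0 and 31.6 after siCCNF. These values were 12.9-fold apart (log2 3.69 ± 0.066, adjusted p = 1.72e-12), and Nqo1 lay on opposite sides of siCONTROL, at 2.82 and -0.87. The peroxidase gene Prdx6 differed by 2.49, Txnrd1, which keeps thioredoxin reduced, by 1.95, and catalase (Cat) by 1.88. Txnip, the inhibitor of thioredoxin, was the exception, at 29.2, 26.5 and 28.5 CPM after siKEAP1 and 63, 64.7 and 62.2 after siCCNF (-1.17, adjusted p = 6.28e-08). Against siCONTROL the list's median was 0.81 after siKEAP1 and -0.32 after siCCNF, the latter -0.16 without the libraries that stood apart.

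NADPH, the reductant that both systems consume, comes largely from the oxidative pentose phosphate pathway. G6pdx, which encodes its first enzyme, was at 431, 439 and 423 CPM after siKEAP1 and 62.1, 64.8 and 61.2 after siCCNF (2.78 ± 0.061, adjusted p = 1.1e-11). Tkt and Taldo1 of the pathway's non-oxidative arm differed by 2.35 and 1.40, and Idh1, a cytosolic NADPH source, by 1.84. Of the 11 tested genes 8 were higher after siKEAP1, 4 called, and the median was 0.90. Pgls alone was higher after siCCNF (-0.34), a call that was lost under 6 of the alternatives.

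Iron and heme genes were mostly higher after siKEAP1. Blvrb, a biliverdin reductase, was at 139, 140 and 133 CPM after siKEAP1 and 17.5, 13.8 and 15.8 after siCCNF (3.13, adjusted p = 3.49e-10). The ferritin genes Ftl1 and Fth1, for iron storage, differed by 1.79 and 1.09, and the iron exporter gene Slc40a1 by 1.60. Tfrc, the receptor for iron uptake, was the only member of 10 higher after siCCNF (-0.95), while 9 were higher after siKEAP1 (median 0.55). Hmox1, heme oxygenase, separated the groups by less than Blvrb, at 124, 142 and 127 CPM against 70.4, 83.8 and 76.8 (0.77, adjusted p = 2.45e-06), and lay above siCONTROL in both (1.58 and 0.81).

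Targets of the aryl hydrocarbon receptor, a ligand-activated factor that shares some targets with NRF2, went both ways. Cyp1a1 was at 48.6, 52.1 and 49.4 CPM after siKEAP1 and 3.59, 2.53 and 3.33 after siCCNF (3.98, adjusted p = 8.41e-09). Cyp1b1, a cytochrome of the same family, showed the reverse, with 95.3, 105 and 98 CPM against 451, 503 and 494 (-2.28, adjusted p = 2.22e-09), below siCONTROL after siKEAP1 (-1.14) and above it after siCCNF (1.14). The repressor gene Ahrr and the partner gene Arnt were higher after siCCNF (-2.30 and -1.40), and the receptor gene Ahr was higher after siKEAP1 (0.52), a call that was lost without siKEAP1 replicate 3 (adjusted p = 0.052). The median of the 6 tested genes was -0.89.

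**Figure D2:**
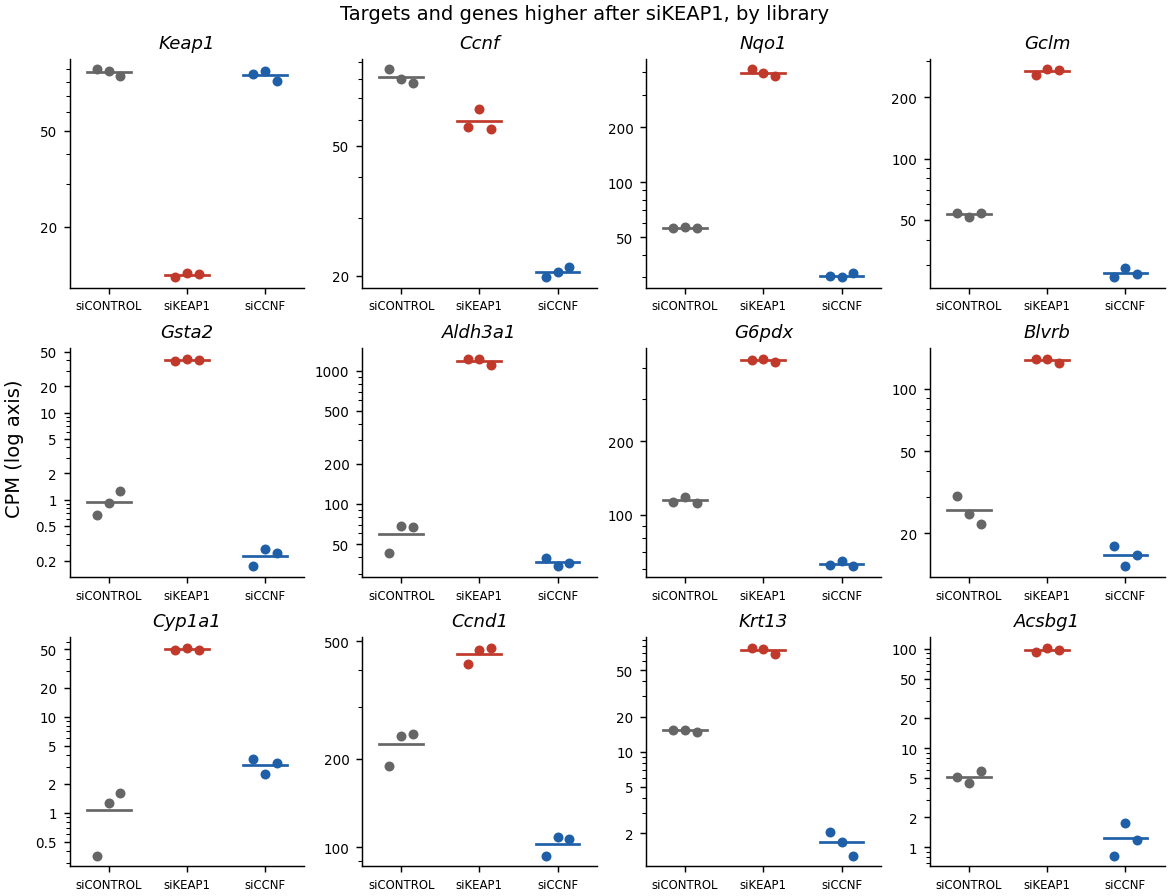
CPM on a log axis in the 3 siCONTROL (grey), 3 siKEAP1 (red) and 3 siCCNF (blue) libraries for 12 genes; each point is a library and each line a group mean. Apart from Keap1, every gene shown is higher in all 3 siKEAP1 libraries than in all 3 siCCNF libraries, from Ccnf at a log2 difference of 1.53 to Gsta2 at 7.45.

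The promoters of these genes were searched for the core of the antioxidant response element, TGACNNNGC on either strand, in RefSeq windows of 250 bases before to 50 after a start (GRCm38.p6). Stretches of 30 bases, read along the gene's strand, are shown for 6 genes so that the matches can be seen beside the levels of those genes. In the 5 lists of NRF2 targets, 56 of 70 tested genes had a window, and 17 of their 73 windows held the core (23.3%), beside 14.1% of the 13480 windows of all genes tested. The core was also in 25.6% of the 39 windows of mitosis genes and in 18.9% of the 37 windows of replication genes, so that its share was not particular to the NRF2 target lists. Over the called genes the shares were 14.9% for those higher after siKEAP1 and 13.8% for those higher after siCCNF. The windows of Nqo1, Slc7a11 and Gsta2 held none before the start, which says only that these letters are not in that stretch. The core is in capitals in the following 4, at chr1:21240454-21240483 (plus strand) for Gsta3, chr3:122245413-122245442 (plus) for Gclm, chr6:138140461-138140490 (plus) for Mgst1 and chrX:74428918-74428947 (minus) for G6pdx.
Gsta3: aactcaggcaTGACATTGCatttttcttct
Gclm: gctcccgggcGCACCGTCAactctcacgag
Mgst1: gcggggcttgGCACGGTCAggaggcggggt
G6pdx: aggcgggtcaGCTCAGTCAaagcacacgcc
In Gsta3 the core lies on the gene's own strand, 121 to 113 bases before the start. In the other 3 it lies on the opposite strand, so that its complement is read here, at 134 to 126 bases before the start of Gclm, 56 to 48 before Mgst1 and 57 to 49 before G6pdx.

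Cell cycle genes were mostly higher after siKEAP1, by less than the NRF2 targets. Of 38 tested DNA replication genes, 33 were higher after siKEAP1 and none after siCCNF (up to 2 under the alternatives), with a median of 0.65 and 6 called. Of 44 tested mitosis genes, 39 were higher after siKEAP1 and none after siCCNF (up to 1 under the alternatives), with a median of 0.53. Only 3 of the mitosis genes were called, beside 11.6% of all genes, so that most of these differences were under 2-fold. Against siCONTROL the medians of the replication and mitosis lists were -0.25 and -0.43 after siKEAP1 and -0.85 and -0.97 after siCCNF. Both groups thus had medians below siCONTROL, and the direct comparison sets the smaller difference against the larger.

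Mcm6, a subunit of the replicative helicase, was at 252, 261 and 259.8 CPM after siKEAP1 and 107, 109 and 109.6 after siCCNF (1.25 ± 0.059, adjusted p = 2.13e-09). Gmnn (geminin, which prevents a second round of licensing), Gins1 (a helicase subunit) and Lig1 (the ligase of Okazaki fragments) differed by 1.32, 1.30 and 1.12. Cdc20, an activator of the anaphase-promoting complex, was at 165, 167 and 161 CPM against 81.4, 89 and 80.8 (0.98, adjusted p = 6.32e-08). The phosphatase gene Cdc25b and the condensin gene Ncaph differed by 1.22 and 1.12. Top2a, a topoisomerase that is a common marker of cycling cells, differed by -0.11 (adjusted p = 0.302), and Mcm10 by -0.21 (adjusted p = 0.0784).

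Of the genes of cyclin F's complex and reported substrates, 9 of 17 were higher after siKEAP1 and 2 after siCCNF (median 0.29). Cdc6, the licensing factor, differed by 0.85, Rrm2, a subunit of ribonucleotide reductase, by 0.66, and E2f1 by 0.76. The cell cycle factor genes E2f3 (-0.43) and Mybl2 (-0.32) were higher after siCCNF. These are mRNA levels, and the substrates are known for regulation at the protein level, which was not measured in these files.

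Genes of the G1/S transition held some of the larger single differences, with 13 of 23 higher after siKEAP1, 6 after siCCNF and a median of 0.44. Ccnd1, cyclin D1, was at 418, 468 and 476 CPM after siKEAP1 and 93.8, 108 and 107 after siCCNF (2.14 ± 0.10, adjusted p = 1.77e-09), on opposite sides of siCONTROL (1.02 and -1.12). Its kinase gene Cdk4 and the retinoblastoma gene Rb1 were also higher after siKEAP1, by 1.55 and 1.74. Ccne1, cyclin E1, was the largest exception, at 17, 17.5 and 16.5 CPM after siKEAP1 and 46, 52.9 and 55.1 after siCCNF (-1.59, adjusted p = 1.31e-08), and all its siCCNF libraries lay above all its siKEAP1 libraries. Its relative Ccne2 went the other way (0.68).

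CDK inhibitors and p53 targets were divided, with 10 of 26 higher in each direction (median 0.08), beside 29.9% and 27.8% of all genes. Cdkn1a, the inhibitor p21, was at 397, 409.8 and 409 CPM after siKEAP1 and 176, 196 and 194 after siCCNF (1.11, adjusted p = 9.97e-08), and the receptor gene Eda2r differed by 1.98. Plk2, another p53 target, and Cdkn1c, the inhibitor p57, were higher after siCCNF (-1.30 and -1.10).

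E2F sites and the CHR element, which is bound by the MuvB complex in promoters of mitotic genes, were sought in the same windows. The E2F letters searched were TTTGGCGC, TTTCCCGC, TTTGCCGC and TTTCGCGC, and the CHR letters TTTGAA, on either strand, none of which contains another. E2F letters were in 37.8% of the 37 windows of replication genes, beside 3.8% of all windows, and the CHR in 74.4% of the 39 windows of mitosis genes, beside 12%. By contrast, the called genes held E2F letters in 2.74% of windows when higher after siKEAP1 and 1.91% when higher after siCCNF, and the CHR in 12.3% and 11.6%. The 2 stretches shown are from Mcm6 (chr1:128359734-128359763, minus strand, E2F letters in capitals, 47 to 40 bases before the start) and Cdc20 (chr4:118437344-118437373, minus strand, CHR in capitals, 18 to 13 before the start).
Mcm6: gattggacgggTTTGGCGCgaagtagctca
Cdc20: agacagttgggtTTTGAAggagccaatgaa
In both the letters lie on the gene's own strand, close to the start.

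**Figure D3:**
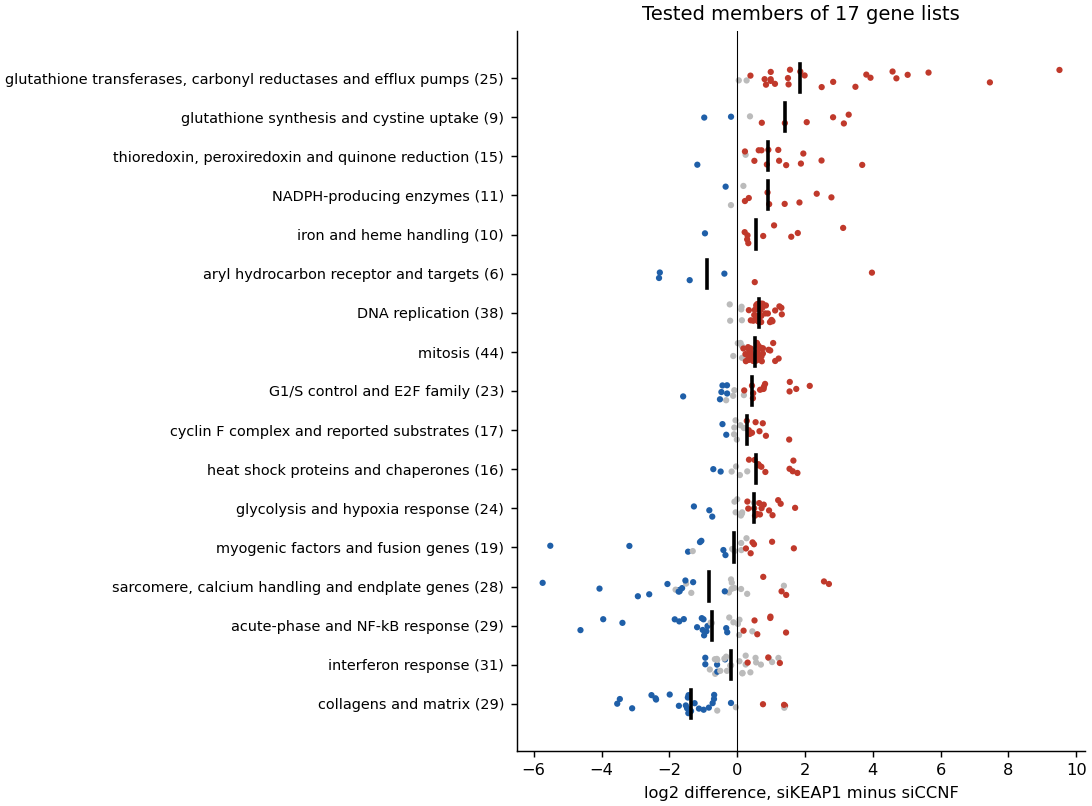
Each point is a tested member of 1 of 17 gene lists, placed by its log2 difference, siKEAP1 minus siCCNF; red and blue points passed the test (adjusted p under 0.05) in either direction, grey points did not, black bars are medians and the number tested is in parentheses. The medians run from 1.86 for glutathione transferases, carbonyl reductases and efflux pumps to -1.36 for collagens and matrix.

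The largest differences towards siKEAP1, among genes with a mean of at least 1 log2 CPM, lay partly outside the NRF2 lists. Acsbg1, an acyl-CoA synthetase for long-chain fatty acids, was at 92.9, 103 and 96.9 CPM after siKEAP1 and 0.827, 1.75 and 1.18 after siCCNF, 79.8-fold apart (6.32 ± 0.19, adjusted p = 5.6e-11). Ppl, which encodes the desmosomal protein periplakin, was at 43.5, 41.2 and 40.2 CPM against 0.77, 1.01 and 0.429 (5.86, adjusted p = 3.2e-10). Krt13, a keratin, was at 78, 76.3 and 68.5 CPM against 2.05, 1.67 and 1.29 (5.47, adjusted p = 1.4e-11). Others among them were Trim54, a ubiquitin ligase of the muscle RING-finger family (5.13), Selp, the adhesion molecule P-selectin (5.02), and Fbxo2, an F-box protein that binds glycoproteins (4.88), next to Gsta2, Gsta1 and Aldh3a1. In each of these genes the 3 libraries of either group did not overlap, as the rule that chose them requires.

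Some genes lay on opposite sides of siCONTROL in the 2 depletions. By the smaller of its 2 distances, the leading gene that siKEAP1 raised was Krt13, with 2.29 after siKEAP1 and -3.19 after siCCNF. It was followed by Vill, a relative of the actin-binding protein villin (2.70 and -2.16), and Disp2 (2.07 and -2.53). In the other orientation stood Ptx3 (-1.84 and 2.11), Chrdl1 (-2.99 and 1.74) and the collagen-binding integrin gene Itga11 (-1.72 and 1.99). Over all called genes higher after siKEAP1, the median against siCONTROL was 0.98 after siKEAP1 and -0.81 after siCCNF, and over those higher after siCCNF it was -0.76 after siKEAP1 and 0.74 after siCCNF. Since both contrasts use the same siCONTROL libraries, these values describe the sets and test nothing further.

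Plakin, desmosome and keratin genes went both ways, with a summed level of 2179 to 2223 CPM after siKEAP1 and 1663 to 1766 after siCCNF. Of 20 genes 15 were tested, 7 were higher after siKEAP1, 6 of them called, and 3 were higher after siCCNF, with a median of 0.36 that was 0.62 without siCCNF replicate 1 and 0.56 to 0.58 under 3 other alternatives. Krt19 differed by 4.86. Krt17 gave 237 counts in all after siKEAP1 and 4 after siCCNF, a ratio of 84.2 (counting interval 32.5 to 312). Cdh1, the epithelial cadherin, was higher after siCCNF (-2.12). Only 2 of 9 epithelial markers, Krt19 and Cdh1, could be tested, and Esrp1 had no counts. The part of other cell types in these values was not tested.

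Lipid genes that also mark fat cells were on the siKEAP1 side. Fabp4, a fatty acid carrier, Pparg, the master factor of fat cells, the lipase gene Lpl and the fat cell factor gene Cebpa differed by 3.82, 1.65, 1.95 and 1.34, the 4 of 10 adipocyte markers that could be tested, and their summed level was 139 to 145 CPM after siKEAP1 and 43.7 to 46.4 after siCCNF. The defining markers Plin1, Cidec, Retn and Cfd had no counts in any of the 6 libraries, and Adipoq had 2 at most.

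Chaperone and glycolysis genes leaned to siKEAP1. Hsp90ab1, a constitutive HSP90, was at 3466, 3440 and 3382 CPM after siKEAP1 and 1157, 1196 and 1173 after siCCNF (1.55, adjusted p = 5.43e-10), and the small heat shock gene Hspb1 differed by 1.78. Of 16 tested chaperone genes 10 were higher after siKEAP1 and 2 after siCCNF (median 0.57), the latter Hspe1 (-0.49) and the heat shock factor Hsf1 (-0.70). The glycolytic enzyme gene Eno1 was at 1238, 1183 and 1202 CPM against 338, 382 and 388 (1.71, adjusted p = 3.73e-09), and 14 of 24 tested genes of its list were higher after siKEAP1 against 3 after siCCNF (median 0.50). Slc2a1, the main glucose importer, was the largest exception (-1.27). Against siCONTROL the chaperone list had a median of 0.23 after siKEAP1 and -0.27 after siCCNF, and the glycolysis list -0.22 and -0.64.

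The extracellular matrix list had the lowest median of the lists. Of 31 collagen and matrix genes 29 were tested, 23 were higher after siCCNF, 17 of them called, and 3 were higher after siKEAP1 (median -1.36). Their summed level was 18070 to 18860 CPM after siKEAP1 and 40330 to 41530 after siCCNF. Col1a1 (ENSMUSG00000001506, chr11:94936224-94953042, plus strand), a chain of type I collagen, was at 86.7, 85.3 and 82.8 CPM after siKEAP1 and 1075, 939.8 and 942 after siCCNF, 11.6-fold higher after siCCNF (-3.54 ± 0.094, adjusted p = 2.4e-11). Its siCONTROL libraries lay between the groups, with log2 differences from siCONTROL of -1.84 after siKEAP1 and 1.70 after siCCNF. The list's medians were on both sides of siCONTROL as well, at -0.77 after siKEAP1 and 0.63 after siCCNF.

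Other matrix genes repeated this. Col1a2, the other chain of type I collagen, differed by -2.53, Postn (periostin) by -3.46, the proteoglycan decorin (Dcn) by -3.10, tenascin C (Tnc) by -2.39 and fibronectin (Fn1) by -1.36. Among the 10 largest differences towards siCCNF were further matrix genes. Fmod, a proteoglycan that binds collagen fibrils, was at 2.51, 2.27 and 2.68 CPM against 98.5, 55.3 and 62.1 (-4.86, adjusted p = 9.09e-09), Col8a2 differed by -4.27, and Adamts5, a protease of aggrecan, by -4.41. The genes that went against the list were Col18a1, the source of endostatin, at 1002, 1061 and 1028 CPM after siKEAP1 and 368, 402 and 414 after siCCNF (1.38), Col5a3 (1.41) and Spp1, osteopontin (0.76).

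Markers of contractile mesenchymal cells were also higher after siCCNF than after siKEAP1. Acta2, smooth muscle actin, was at 369, 449.6 and 459 CPM after siKEAP1 and 1732, 1783 and 1811 after siCCNF (-2.06), and the actin-binding genes Tagln and Cnn1 differed by -1.51 and -1.49. The 7 tested of 10 endothelial and smooth muscle markers summed to 511 to 587 CPM after siKEAP1 and 1900 to 1974 after siCCNF. Most of this was Acta2, while Myh11, a marker of mature smooth muscle, had 10 counts at most. In siCONTROL the same markers summed to 1552 to 1744 CPM, nearer to siCCNF than to siKEAP1. Cdh5, Tek and Vwf, at low counts, were higher after siKEAP1. Of osteoblast and chondrocyte markers 6 of 10 could be tested, Alpl differed by -1.90, Runx2 by -0.16 (adjusted p = 0.236), and Ibsp and Sost had no counts. The part of other cells in these values was not tested.

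Several of the largest differences towards siCCNF were at single signalling genes, whereas the lists of signalling pathways were mixed. Chrdl1, a BMP antagonist, was at 2.74, 2.23 and 2.46 CPM after siKEAP1 and 64.8, 65 and 67.6 after siCCNF (-4.73 ± 0.15, adjusted p = 6.62e-11), and Sfrp2, a modulator of WNT signalling, at 51.1, 48 and 56.2 against 992, 756 and 807 (-4.04, adjusted p = 4.09e-11). Against siCONTROL, Sfrp2 differed by 0.15 after siCCNF (adjusted p = 0.238) and by -3.89 after siKEAP1. Nkd2, an inhibitor of WNT signalling, differed by -4.71, and the cytokine gene Tnfsf15 by -4.05. In the BMP and TGF-beta list 13 of 23 tested genes were higher after siCCNF and 6 after siKEAP1 (median -0.37). Ctgf, a matricellular target of TGF-beta, Nog and Fst, antagonists of BMPs and activins, and Bmp4 differed by -2.85, -2.59, -1.47 and -2.36, and the BMP targets Id1 and Id2 by 1.20 and 0.83.

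Metalloproteases and their inhibitors were divided, with 10 of 23 higher in each direction, beside 29.9% and 27.8% of all genes. Called were 4 of those higher after siKEAP1 and 9 of those higher after siCCNF, beside 11.6% and 7.34% of all genes. The list's median of 0.05 changed sign with a minimum of 10 counts in every library (-0.09). Adam8 (3.30) and Mmp10 (2.70) led towards siKEAP1, and Mmp11 (-3.01) and Adamts1 (-2.06) followed Adamts5 towards siCCNF.

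Some acute-phase genes were far higher after siCCNF. Saa3, an acute-phase apolipoprotein, was at 7.2, 6.76 and 8.51 CPM after siKEAP1 and 169, 199 and 185 after siCCNF, 24.6-fold higher after siCCNF (-4.62 ± 0.15, adjusted p = 9.16e-11). It was above siCONTROL in both, by 1.76 after siKEAP1 and 6.38 after siCCNF. Ptx3, a secreted pattern recognition protein, was at 4.04, 5.35 and 3.38 CPM against 60.0, 70.3 and 68 (-3.95, adjusted p = 1.25e-09), and here siKEAP1 lay below siCONTROL. Haptoglobin (Hp) differed by -3.38 and the complement gene C3 by -1.71, with 58.3, 72.5 and 72.5 CPM against 203, 220.4 and 241. Cebpd, a factor that drives acute-phase genes, differed by -1.84.

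The list as a whole was mixed. Of 34 genes 29 were tested, 15 were higher after siCCNF, 9 called, and 6 were higher after siKEAP1, with a median of -0.75. The 6 became 3 without siCCNF replicate 1, and the median was -0.34 without siCCNF replicate 2, -0.30 with at least 10 counts in every library and -0.27 with limma on FPKM. The chemokine gene Ccl7 was higher after siKEAP1 (1.44), whereas Cxcl1 was higher after siCCNF (-1.01). Ccl2 (0.07, adjusted p = 0.712) and the NF-kB subunit and inhibitor genes Nfkb1 (0.06) and Nfkbia (0.02) did not pass the test. Of macrophage markers 4 of 12 could be tested. Their summed level was 29.1 to 34.8 CPM after siKEAP1, 18 to 22.6 after siCCNF and 13.2 to 17.1 in siCONTROL.

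Few interferon-stimulated genes separated the groups. Of 31 tested genes 3 were higher after siKEAP1 and 5 after siCCNF, beside 29.9% and 27.8% of all genes, and the median of -0.18 turned to 0.16 without siKEAP1 replicate 1 and to 0.20 without siCCNF replicate 2. The counts also depended on the fit, since they ranged from 1 to 8 and from 2 to 12 over the alternatives. Both groups lay above siCONTROL, with medians of 0.85 after siKEAP1 and 0.92 after siCCNF, which were 0.45 and 0.50 without the libraries that stood apart. Isg15, a ubiquitin-like protein induced by interferon, differed by -0.65 (adjusted p = 0.191) and passed the test under 3 alternatives. In the MHC class I list 3 of 15 genes were higher after siKEAP1, among them H2-T23 (1.28), whose near copies make its count uncertain, and 5 after siCCNF, among them the peptidase gene Erap1 (-1.22) and the immunoproteasome gene Psmb9 (-1.02). The 3 genes became 5 without siKEAP1 replicate 1, without siCCNF replicate 2, with the replicate block and in the fit of the 6 compared libraries, and 6 with no filter on low counts.

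**Figure D4:**
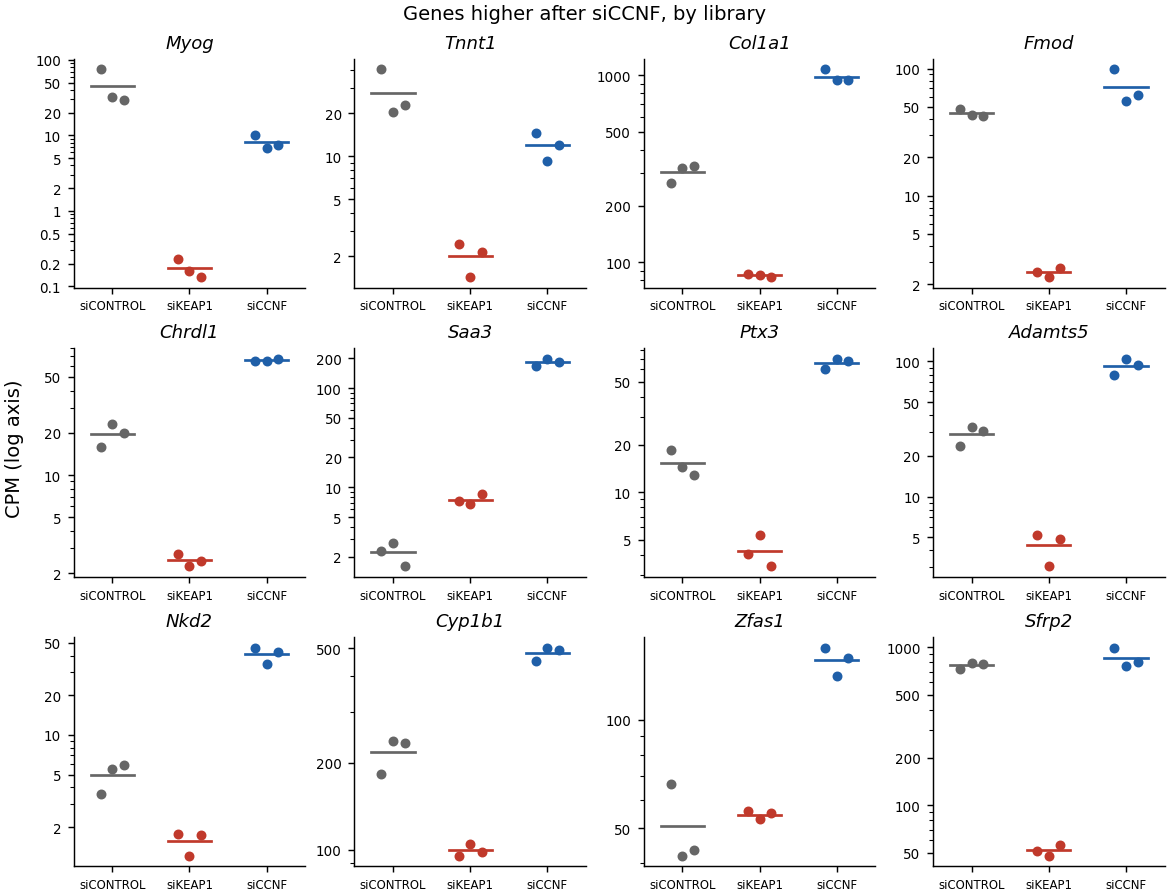
CPM on a log axis in the 3 siCONTROL (grey), 3 siKEAP1 (red) and 3 siCCNF (blue) libraries for 12 genes; each point is a library and each line a group mean. Every gene shown is higher in all 3 siCCNF libraries than in all 3 siKEAP1 libraries, while siCONTROL lies above both for Myog and Tnnt1, between them for Col1a1 and Ptx3, and below both for Saa3.

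Muscle differentiation genes gave the largest difference towards siCCNF among genes with a mean of at least 1 log2 CPM. Myog, the factor that starts terminal differentiation, was at 0.232, 0.162 and 0.132 CPM after siKEAP1 and 10.2, 6.84 and 7.35 after siCCNF, from 12 counts in all against 806, a ratio of 47.3 (counting interval 26.9 to 91.9, fitted log2 difference -5.51 ± 0.56, adjusted p = 2.33e-06). Myog was below siCONTROL in both groups. The siCONTROL libraries had 74.6, 32 and 29.3 CPM, the first of which is the library that stood apart. Rbm24, an RNA-binding splicing regulator of muscle, differed by -3.18. Mymk, a fusion gene, differed by -1.45 (adjusted p = 0.0182), which missed the threshold when siKEAP1 replicate 1 or 3 or siCCNF replicate 1 was left out, with limma on FPKM and after thinning. Over 19 tested of 21 myogenic factors and fusion genes, 6 were higher after siKEAP1 and 7 after siCCNF, beside 29.9% and 27.8% of all genes. Their median of -0.08 became 0.12 with a minimum of 10 counts in every library.

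Sarcomere genes went both ways. Of 37 genes 28 were tested, 12 were higher after siCCNF, 11 of them called, and 5 were higher after siKEAP1. The median of -0.83 was -0.36 without siCCNF replicate 1 and -0.25 in a fit of the 6 compared libraries, and it came nearer 0 with at least 10 counts in every library (-0.165, with 7 higher after siCCNF) and with limma on FPKM (-0.067). Embryonic myosin (Myh3) was at 0.232, 0.0405 and 0.132 CPM after siKEAP1 and 2.79, 2.57 and 1.45 after siCCNF, the former from 1 to 5 counts a library (adjusted p = 0.000157). Cardiac actin (Actc1) gave 5 counts in all after siKEAP1 and 405 after siCCNF, a ratio of 57.0 (counting interval 24.2 to 177), and Tnnt1, slow skeletal troponin T, differed by -2.59. All 3 are switched on in differentiating myoblasts.

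In the opposite direction stood cardiac troponin T and the acetylcholine receptor. Tnnt2 was at 56.2, 55.1 and 53.1 CPM after siKEAP1 and 8.75, 7.74 and 8.64 after siCCNF (2.71 ± 0.21, adjusted p = 1.46e-07), above siCONTROL after siKEAP1 (1.30) and below it after siCCNF (-1.41). Chrnd, a receptor subunit, was at 19.6, 17.3 and 19 CPM against 3.36, 3.19 and 2.93 (2.56, adjusted p = 4.31e-07), and the subunit genes Chrna1 and Chrnb1 differed by 1.45 and 1.31. Against siCONTROL the median of the sarcomere list was -2.72 after siKEAP1 and -1.41 after siCCNF.

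Growth factor genes linked to myogenesis went both ways, beside 29.9% of all genes higher after siKEAP1 and 27.8% after siCCNF. Among 19 tested IGF, thyroid hormone and imprinted genes, 6 were higher in each direction. Called were 2 of those higher after siKEAP1 and all 6 higher after siCCNF, beside 11.6% and 7.34% of all genes. H19, an imprinted long RNA, was at 104, 72.1 and 88.3 CPM after siKEAP1 and 272, 230.2 and 265 after siCCNF (-1.54), and Igf1 and the thyroid hormone receptor gene Thra differed by -2.44 and -2.20. The list's median of 0.09 became -0.30 with a minimum of 10 counts in every library. In the Notch list 6 of 15 tested genes were higher after siKEAP1 and 4 after siCCNF (median 0.25, and 0.11 with limma on FPKM). The receptor genes Notch1 and Notch3 and the ligand gene Dll1 differed by 1.13, 1.09 and 1.02, and the ligand gene Jag1 by -0.64.

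Lists of stress and organelle genes held members higher in each direction, as did all genes tested (29.9% after siKEAP1 and 27.8% after siCCNF). The lysosome list had 12 of 32 higher after siKEAP1 and 16 after siCCNF (median -0.24), where the factor genes Mitf and Tfeb differed by 2.09 and 1.37, and Gpnmb, a melanosome and lysosome glycoprotein, by -2.26. For ATF4 and unfolded protein response genes the counts were 11 and 12 of 31 (median -0.08), with Gdf15, a stress cytokine, at 2.89 and Nupr1, a stress-induced chromatin protein, at -1.73. The sterol and fatty acid list had 10 and 6 of 30 (median 0.08). AP-1 and immediate early genes had 10 and 6 of 24 (median 0.08), led by the phosphatase gene Dusp4 (3.12) and opposed by Egr2 (-1.64). MYC and ribosome biogenesis genes had 3 and 11 of 24 (median -0.20), and Myc differed by -0.63.

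**Figure D5:**
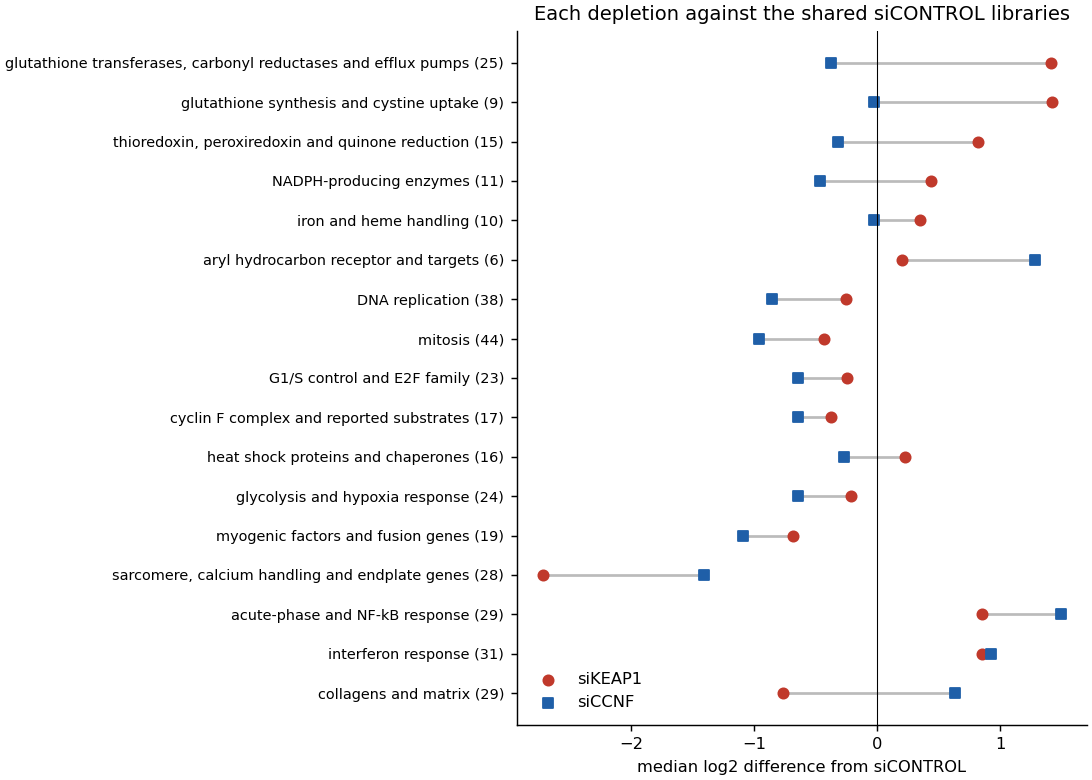
Median log2 difference from siCONTROL of the tested members of 17 gene lists (number in parentheses) after siKEAP1 (red circles) and after siCCNF (blue squares), joined by a line; both use the same 3 siCONTROL libraries. For collagens and matrix the markers lie on either side of 0, at -0.77 and 0.63, whereas for DNA replication, mitosis and sarcomere genes both lie below 0 and for interferon genes both lie above it.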

How the data were processed

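RNA from 12 samples of C2C12 cells was sequenced for the authors by Novogene. The authors deposited a table with a count of reads per gene and library without normalization, and FPKM values. The submitters' processing notes name HISAT2 and GRCm39, but the deposited coordinates are those of GRCm38: of 15110 tested identifiers found in GENCODE M21, 14514 (96.1%) have the same chromosome, start and end. The counting tool, its strand setting and its handling of reads shared by paralogs, pseudogenes or overlapping genes are not given in the sources used here. The table's 15 columns of the authors' own group means and comparisons (fold changes and p-values) were not used.

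The deposited counts entered edgeR 4.0.16 (R 4.3.3) with its filterByExpr filter and TMM scaling. All 12 libraries were fitted together by quasi-likelihood, with a mean for each of the 4 groups, so that the groups share 1 estimate of the spread. The contrast was siKEAP1 minus siCCNF, and its p-values were corrected by Benjamini-Hochberg across the 15122 genes that passed the filter. A gene was called when its adjusted p lay under 0.05 and its difference exceeded 2-fold. An exact permutation test of 3 against 3 libraries cannot go below 0.1 and was not used. The groups did not overlap for 10777 of the 15122 genes tested, so that no overlap by itself does not single out a gene. The labels call the replicates biological but do not say whether they were separate cultures on separate days, so that p-values measure the spread between these samples. Depth was 18464209 to 37743198 counts per library, and intervals of count ratios are exact binomial and cover counting error only.

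The comparison and the gene lists were chosen with earlier results of these data known, so lists are described by counts and medians beside all genes, with no test of a list, and some genes are in several lists. Named genes were the targets and pathway genes Keap1, Ccnf, Nfe2l2, Cul3, Trip12 and Sqstm1, the 10 largest differences in each direction with a mean of at least 1 log2 CPM, no overlap and a named symbol, 3 genes in each orientation on opposite sides of siCONTROL, up to 4 leading members of each list, and members that went against their list or on which a count turns. A few genes that this rule names are not reported here. Promoter windows of RefSeq (GRCm38.p6, 300 bases) were matched by symbol for 10544 of the genes tested.

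The alternatives were DESeq2 1.42.0, total library sizes, no filter, at least 10 counts in every library, the 6 compared libraries alone, a replicate block, limma 3.58.1 on log2(FPKM + 1), thinning to 18464209 counts, removal of a gene length trend (spline with 5 degrees of freedom), a glmTreat test of a difference over 2-fold, and leaving out each compared library. Leaving out siCONTROL replicate 1 with siKEAP1/siCCNF replicate 3 was chosen after seeing the data. The code was tested on simulated data with known changes.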

Additional observations from a re-analysis of the deposited data

How the results depend on the processing

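All called genes that an alternative could test kept their direction under it, 1831 to 2857 of 2857 genes. The number called was 1833 (1156 higher after siKEAP1 and 677 after siCCNF) with at least 10 counts in every library, where 1831 of the called genes could be tested, and 1140 (758 and 382) with limma on log2(FPKM + 1), which shrinks the differences of low genes. A glmTreat test of a difference over 2-fold called 1531. Leaving out 1 compared library gave 2756 to 2936 called genes, DESeq2 kept 2820 of the 2857, and the fit of the 6 compared libraries had 10110 genes at an adjusted p under 0.05. Replicate numbers paired the siKEAP1 and siCCNF samples weakly at most. Deviations of same-numbered libraries correlated at 0.087, 0.00352 and 0.0411 over genes, and those of differently numbered libraries at -0.098 to 0.0609. With the replicate block 2844 genes were called (1740 and 1104). Over the alternatives the median of all genes lay between -0.0266 (no filter on low counts) and 0.0356 (total library sizes), beside -0.00717 in the main fit.

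Cul3, whose difference was near 0, changed sign with DESeq2 (0.0058), total library sizes (0.043), at least 10 counts in every library (0.0028), limma on FPKM (0.0080) and in 3 of the fits without 1 compared library (range over these fits -0.046 to 0.024). With at least 10 counts in every library the medians of the myogenic (0.12), metalloprotease (-0.088) and IGF and imprinted (-0.30) lists changed sign, and leaving out 1 compared library turned the signs of the interferon (0.16 and 0.20) and MHC class I (-0.037) medians. Calls at an adjusted p under 0.05 were lost under at least 1 alternative for the genes Nfe2l2, Ahr, Slc3a2, Pgls, Mymk and Vwf of the text and for the list members Myf6, Myl1, Mx1, Xaf1, Ctsk, Bglap and Col2a1, among others, and gained for Trip12, Isg15, Mcm10, Top2a, Myod1 and Runx2. The causes were not tested. In all, 2378 values of named genes kept direction and side of the threshold, 25 lost and 3 gained the threshold, and 7 changed sign. The counts of Gsta2, Gsta3, Krt17, Actc1 and Myog in the lower group limit how far their ratios can be stated. The same holds for others, among them Hp (2 to 10 counts per siKEAP1 library), Rbm24 (4 to 16), Nog (4 to 14) and Tnfsf15 (5 to 17).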

Other observations

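Ribosomal protein genes were higher after siCCNF as a family, which was chosen after its values were seen. Of 82 tested protein-coding members, 69 were higher after siCCNF and 2 after siKEAP1 at an adjusted p under 0.05 (edgeR's quasi-likelihood test), with a median log2 difference of -0.63 (siKEAP1 minus siCCNF). Their summed level was 37910 to 42110 CPM after siKEAP1, 58250 to 68890 after siCCNF and 33270 to 45670 in siCONTROL, so that the siCCNF libraries stood apart from both other groups. Against siCONTROL the median was 0.76 after siCCNF and 0.09 after siKEAP1. Ribosomal protein pseudogenes, which may share reads with these genes, had 51 of 81 higher after siCCNF and none after siKEAP1, with a median of -0.66.

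Host genes of small nucleolar RNAs, which guide the modification of ribosomal RNA, stood on the same side, also chosen after their values were seen. Of 17 tested, 12 were higher after siCCNF and 1 after siKEAP1 (median -0.76), and their summed level was 221.6 to 226.4 CPM after siKEAP1 and 411.4 to 459.3 after siCCNF. Zfas1 was at 55.8, 53 and 55 CPM after siKEAP1 and at 159, 132 and 149 after siCCNF (-1.43), with no overlap, and Snhg12 differed by -1.37. The exception was Snhg11, with 245 counts in all after siKEAP1 and 1 after siCCNF, a ratio of 348 with a counting interval of 61.9 to 13800.

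The called genes differed in their make-up by annotation. Of those higher after siKEAP1, 1604 (91.8%) were protein coding and 42 (2.40%) pseudogenes, and of those higher after siCCNF 780 (70.3%) were protein coding, 81 (7.30%) pseudogenes, 68 lincRNAs and 64 antisense genes, beside 85.2% protein coding and 5.97% pseudogenes among all genes tested.

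Gapdh, often used as a reference gene, varied within the groups: it was at 168, 11.1 and 203 CPM in the siKEAP1 libraries, at 9.15, 105 and 156 in the siCCNF libraries and at 14.0, 10.6 and 19.1 in siCONTROL. The groups overlapped, and the difference was 0.50 (adjusted p = 0.631). How reads shared between Gapdh and its pseudogenes were counted is not given in the sources used here. These values therefore may not follow the level of Gapdh mRNA, and the cause of their spread was not tested.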
